A study of Mus musculus with 2 samples.

Results

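Of 39 listed genes of interferon signalling and antiviral defence, 38 were present among the 25791 gene symbols of both libraries and are described here; Ifi27 was not listed under that symbol. The genes were chosen by name, as receptors, signal transducers, nucleic acid sensors and effectors that are not immunity-related (IRG) or guanylate-binding (GBP) GTPases. The set does hold Mx1 and Mx2, which are dynamin-like GTPases. RNA-seq libraries were made from thymic epithelium of mouse fetuses 15 days post coitum, gated as EpCAM+, CD45- and PDGFRa-. The humanCD3eTg group is 1 library from mice of a C57BL/6J x CBA/J background that, by its title, carry a human CD3E transgene. The B6J group is 1 library from C57BL/6 mice. The labels give neither the transgene's promoter and copy number nor how many fetuses each library holds.

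The question of the study is how thymic epithelium differs with and without developing thymocytes. High-copy human CD3E transgenes are known to block T cell development, but in the treatment labels it is humanCD3eTg that is given as having thymocytes and B6J as lacking them. Levels are FPKM values (fragment numbers per length of transcript and per depth of library), and genes count as past the filter where the mean over both libraries reached 1 FPKM. Of 20 thymocyte markers 19 were lower in humanCD3eTg, and the 20 summed to 15.0 FPKM in humanCD3eTg and 201 FPKM in B6J. Directions are therefore given by the titles of the libraries. The gated cell type was present in both: Epcam stood at 231 FPKM in humanCD3eTg and 174 FPKM in B6J, and 14 thymic epithelial markers summed to 8560 FPKM in humanCD3eTg and 8509 FPKM in B6J. Krt8 and Krt18 carried much of that sum, and without them it was 3506 FPKM in humanCD3eTg and 3669 FPKM in B6J. The markers differed one by one: 10 of 14 were lower in humanCD3eTg, with Foxn1 at 43.7 FPKM in humanCD3eTg and 91.1 FPKM in B6J, and Krt5 was higher, at 955 FPKM in humanCD3eTg and 280.2 FPKM in B6J. With 1 library per group there was no test and no spread between mice, and transgene, strain background and thymocytes cannot be told apart.

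Interferons signal through pairs of receptor chains. Type I interferons bind IFNAR1 and IFNAR2, interferon gamma binds IFNGR1 and IFNGR2, and both receptors use Janus kinases to phosphorylate STAT proteins. A complex that contains STAT2 and IRF9 binds the interferon-stimulated response element (ISRE) of many antiviral genes, while interferon gamma acts through gamma-activated (GAS) elements. In the thymus, epithelial cells are known to express interferon-stimulated genes without infection.

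Most of these genes stood lower in humanCD3eTg. In FPKM 33 of the 38 were lower, where 11684 of all 25791 genes were lower and 8396 higher. Oas2 was among the 33, with a direction that turned under median centring and quantile normalization. The other 5 were higher in humanCD3eTg, namely Oas3, Mx2, Jak2, Ifnar2 and Ifit2, of which Ifnar2 and Ifit2 turned when libraries were rescaled without haemoglobin, mitochondrial and ribosomal protein genes. Differences were measured as log2 ratios of humanCD3eTg over B6J on FPKM + 1, which understates those of low genes. Of the 38 genes, 28 were past the filter and 10 were not. Of these 28, 10 were at least 2-fold lower, where 4.47% of all 13493 genes past the same filter were. Zbp1 and Parp14, among these 10, lay under 1 FPKM in humanCD3eTg and passed the filter through B6J alone. Their lower direction was thus fixed by the filter. None of the 28 was at least 2-fold higher, against 2.1% of all genes. Lower to any extent were 25 of the 28, where 55.4% of all genes were. The median log2 ratio was -0.71 over the 28 genes and -0.05 over all genes.

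Lymphoid, general leukocyte and endothelial markers mostly stood lower in humanCD3eTg as well. The 14 general leukocyte markers summed to 81.1 FPKM in humanCD3eTg and 225 FPKM in B6J, with none at 0 in either library, and without Arhgdib, the highest of them, to 16.2 FPKM in humanCD3eTg and 107 FPKM in B6J. The 12 endothelial markers summed to 18.4 FPKM in humanCD3eTg and 65.0 FPKM in B6J, again with none at 0, and without Egfl7 to 10.04 FPKM in humanCD3eTg and 56.4 FPKM in B6J. The 11 markers of NK and innate lymphoid cells summed to 1.51 FPKM in humanCD3eTg, where 8 were at 0, and to 67.2 FPKM in B6J, where 2 were at 0. Gzma, listed at 0 in humanCD3eTg, held 56.6 FPKM of the B6J sum, and the others summed to 1.51 FPKM in humanCD3eTg and 10.6 FPKM in B6J. For thymocyte markers the number at 0 was 6 in humanCD3eTg and 1 in B6J. Macrophage, dendritic and erythroid genes went both ways, though each list summed lower in humanCD3eTg. The 19 macrophage and dendritic cell genes summed to 60.7 FPKM in humanCD3eTg and 116 FPKM in B6J. Of 8 past the filter, Bst2 among them, 6 were lower and 2 higher in humanCD3eTg. At least 2-fold lower were 4 (background 4.47%), of which Mpeg1 and Ctss passed the filter through B6J alone. C1qb, the 1 at least 2-fold higher (background 2.1%), stood at 2.13 FPKM in humanCD3eTg and 0.524 FPKM in B6J. C1qa and C1qc, not past the filter, were lower in humanCD3eTg. The 7 erythroid genes found summed to 1585 FPKM in humanCD3eTg and 2610 FPKM in B6J. Of 5 erythroid genes past the filter 4 were lower and 1, Hbb-y, was higher, at 8.51 FPKM in humanCD3eTg and 2.53 FPKM in B6J. Genes of pigment cells and neural crest moved the other way, with 174 FPKM over 11 genes in humanCD3eTg and 12.2 FPKM in B6J. In bulk RNA, fewer cells of a type and less RNA per cell cannot be told apart, and the part of these cells in the values below was not tested.

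The difference was not confined to genes of low level. At a mean of 1 to 5 FPKM 5 of 10 genes of the set were at least 2-fold lower, against 7.91% of all genes in that band. From 5 to 20 FPKM 2 of 7 were, against 2.90%. At 20 FPKM or more 3 of 11 were, against 2.95%. The 3 genes Zbp1, Parp14 and Ifit1 passed the filter through their level in B6J alone, since each lay under 1 FPKM in humanCD3eTg. Their lower direction was thus fixed by the filter. Zbp1 and Parp14 are among the 5 genes at least 2-fold lower at 1 to 5 FPKM. At the 2-fold limit, Ifi35 lay just inside with a log2 ratio of -1.01 and Oasl2 just outside with -0.98.

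**Figure D1:**
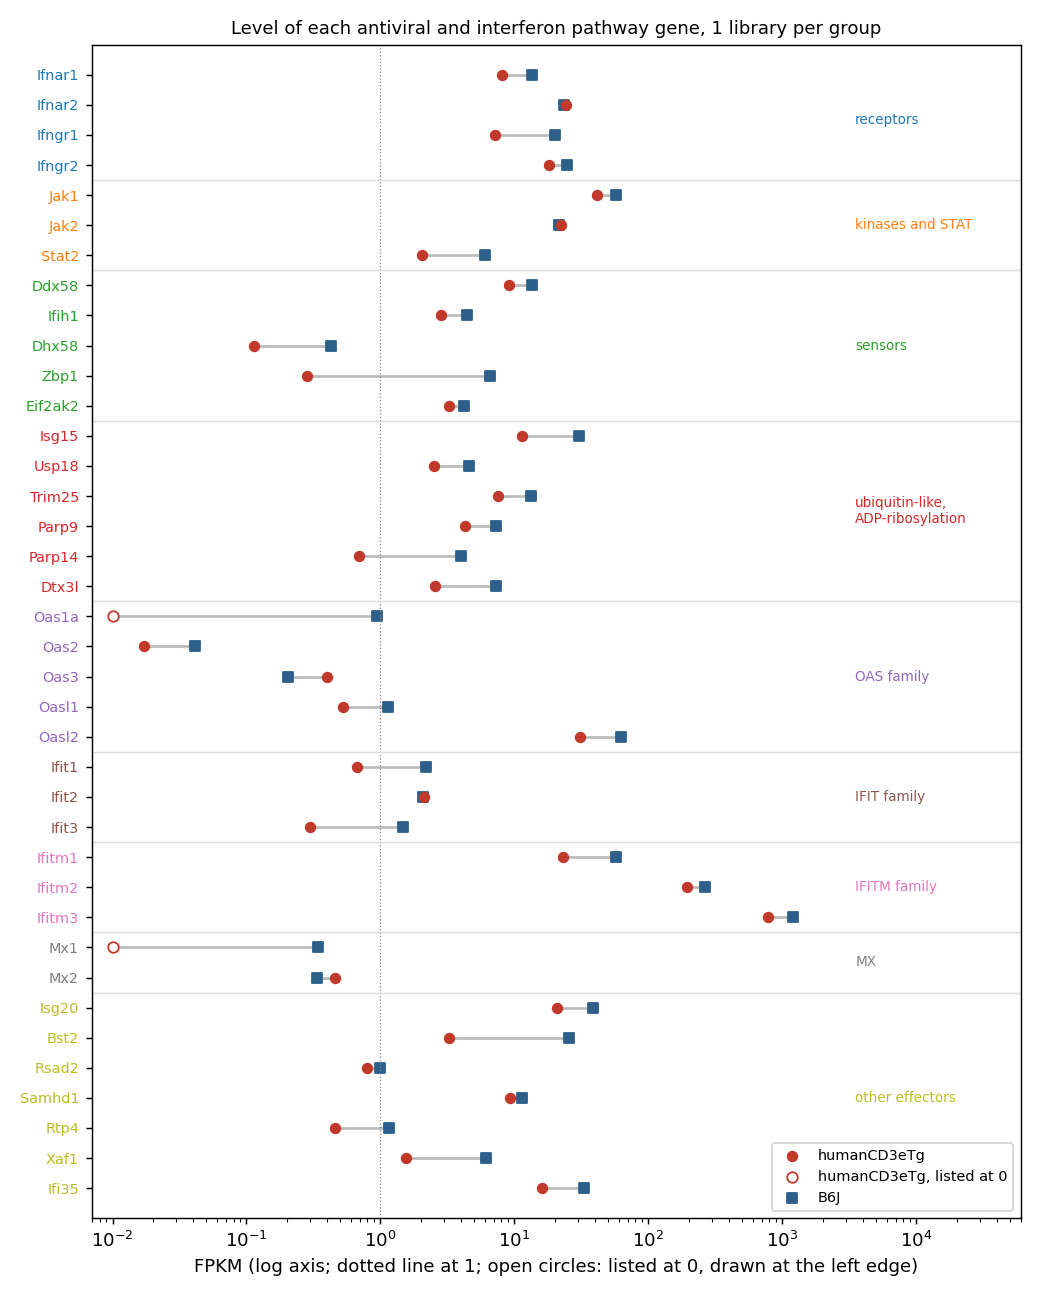
FPKM on a log axis for each of the 38 genes, grouped by role, with a circle for the humanCD3eTg library, a square for the B6J library and open circles for genes listed at 0. The circle lies left of the square for 33 genes, and Ifitm3 is the highest gene in both libraries.

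Promoter sequence is shown because the rule did not use it and because the ISRE is the element through which many of these genes are known to be induced. RefSeq promoters (build GRCm38.p6, 250 bases before to 50 after each start site) were matched for 29 of the 38 genes. The ISRE-like motif, GAAA followed after any 2 bases by a second GAAA and searched on both strands (TTTC on the other), was present for 13 of these 29 genes (44.8%) and for 3.61% of the 8561 matched genes past the filter. The GAS-like motif TTCNNNGAA, which reads the same on both strands, was present for 10 of 29 (34.5%) and 8.32% of those genes past the filter. The shares of the set include genes not past the filter. Of those past it, 9 held the ISRE-like motif and 15 did not, with the same numbers for the GAS-like motif. In Bst2, Eif2ak2, Ifitm3 and Oas1a both motifs were present, and in Bst2 and Ifitm3 they overlap. For 9 genes an ISRE-like match lies wholly before the start site. These stretches are printed from 15 bases before to 15 bases after the matches (cut at the start site), in the direction of transcription, with the matches in capitals.
Isg15, chr4:156200860-156200911, minus strand: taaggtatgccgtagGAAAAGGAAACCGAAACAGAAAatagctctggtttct
Bst2, chr8:71537572-71537617, minus strand: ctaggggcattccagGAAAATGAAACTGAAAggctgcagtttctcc
Oas1a, chr5:120907526-120907560, minus strand: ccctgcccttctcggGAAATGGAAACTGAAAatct
Oas3, chr5:120777710-120777749, minus strand: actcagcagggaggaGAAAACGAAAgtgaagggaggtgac
Ifit1, chr19:34640770-34640828, plus strand: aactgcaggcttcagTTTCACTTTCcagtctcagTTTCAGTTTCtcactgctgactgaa
Ifit3, chr19:34583358-34583431, plus strand: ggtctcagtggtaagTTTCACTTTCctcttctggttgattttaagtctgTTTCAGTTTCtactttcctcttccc
Ifitm2, chr7:140955983-140956022, minus strand: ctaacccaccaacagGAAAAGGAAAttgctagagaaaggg
Rsad2, chr12:26456548-26456587, minus strand: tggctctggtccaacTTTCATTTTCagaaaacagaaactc
Stat2, chr10:128270261-128270300, plus strand: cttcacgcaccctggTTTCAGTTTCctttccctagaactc

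Isg15 holds 3 overlapping matches, Bst2 and Oas1a hold 2 overlapping ones, and Ifit1 and Ifit3 hold 2 separate ones. In Ddx58, Ifih1, Eif2ak2 and Ifitm3 the matches lie after the start site. Within the set, genes with and without the motif had similar shares of 2-fold differences. Of the 9 genes with a match past the filter, 3 were at least 2-fold lower in humanCD3eTg (median log2 ratio -0.63), and of the 15 such genes without a match, 5 were (median -0.75). Over all genes with a match and past the filter, the 9 of the set among them, 31 of 309 (10.03%) were at least 2-fold lower (median -0.13). Over all 13493 genes past the filter, with or without a matched promoter, 4.47% were (median -0.05). Whether the motif bears on the difference was not tested. A match is a run of letters and not a shown binding site.

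**Figure D2:**
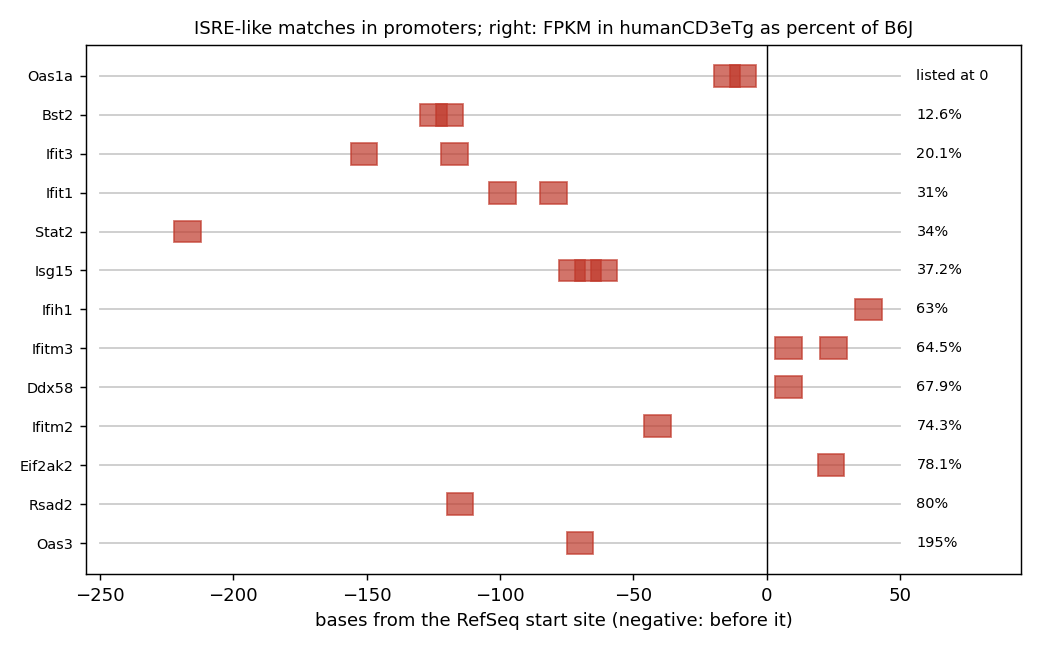
Position of each ISRE-like match (red boxes) in the promoters of 13 genes, in bases from the RefSeq start site, with the FPKM of humanCD3eTg as a percent of that of B6J at the right. The genes run from Oas1a at the top, listed at 0 in humanCD3eTg, to Oas3 at the bottom, at 195% of the B6J level.

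The receptor chains differed among themselves. Ifngr1, the chain that binds interferon gamma, stood at 7.22 FPKM in humanCD3eTg and 19.9 FPKM in B6J (log2 ratio -1.35). Its partner Ifngr2 stood at 18.0 FPKM in humanCD3eTg and 24.7 FPKM in B6J (-0.43). Ifngr1 was thus at 36.2% and Ifngr2 at 72.9% of the B6J level. Ifnar1, a chain of the type I receptor, stood at 8.11 FPKM in humanCD3eTg and 13.6 FPKM in B6J (-0.68). Ifnar2, the other chain, stood at 24.1 FPKM in humanCD3eTg and 23.6 FPKM in B6J, or 102% of the B6J level. Ifnar1 was at 59.6% of the B6J level. As a percent of B6J, Ifngr1 was thus lower than Ifngr2, and Ifnar1 lower than Ifnar2.

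The counting error behind these values was estimated from depth. Low FPKM values fall on steps worth 1 fragment, which gave about 15847900 fragments in humanCD3eTg and 19880700 in B6J. With a transcript length for each gene, this yields an approximate number of fragments and an exact binomial 95% interval for the level in humanCD3eTg as a percent of that in B6J. These intervals cover counting error only, and not the spread between mice or sorts. The interval was 31.1% to 42.2% for Ifngr1, 67.4% to 78.9% for Ifngr2, 53.3% to 66.5% for Ifnar1 and 93.9% to 110% for Ifnar2. Over the 38 genes it lay below 100% for 31 (Oas1a and Mx1, listed at 0, among them), above it for Oas3 and across it for Ifnar2, Jak2, Oas2, Ifit2, Mx2 and Rsad2. The same interval was not computed over all genes, so these counts have no background share and are not a result about the set.

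**Figure D3:**
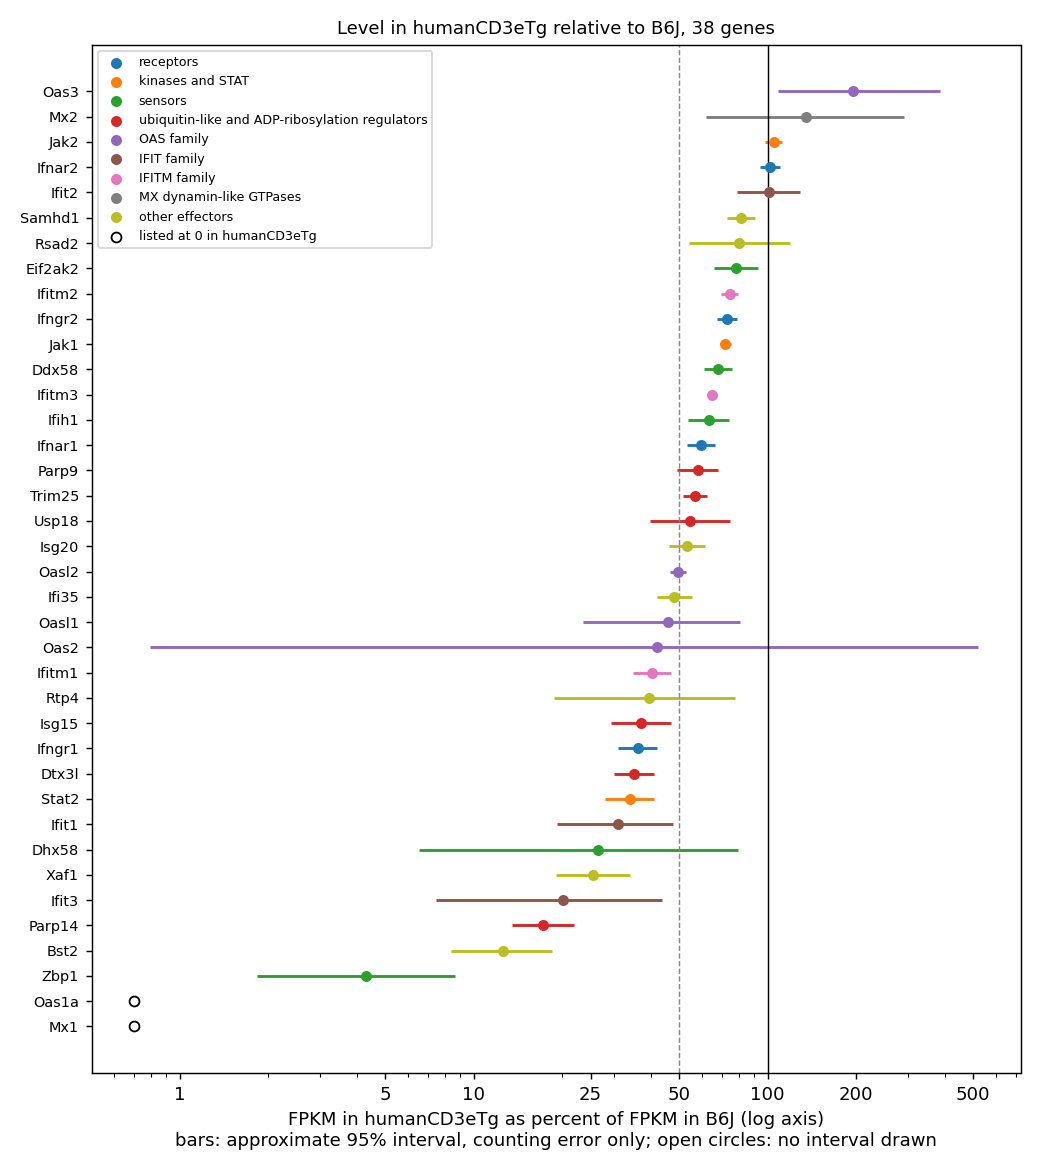
FPKM in humanCD3eTg as a percent of that in B6J (points, log axis) for the 38 genes, coloured by role, with approximate 95% intervals for counting error as bars, a solid line at equal level and a dashed line at 50%. Zbp1, Bst2 and Parp14 are the lowest genes with a value above 0, at 4.29%, 12.6% and 17.2% of the B6J level.

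The kinases downstream of the receptors lay within 2-fold. Jak2, which serves the interferon gamma receptor, stood at 22.4 FPKM in humanCD3eTg and 21.4 FPKM in B6J. Jak1, which serves both receptors, stood at 41.0 FPKM in humanCD3eTg and 57.1 FPKM in B6J (log2 ratio -0.47). Stat2, the STAT specific to the ISRE-binding complex, was at least 2-fold lower, with 2.05 FPKM in humanCD3eTg and 6.02 FPKM in B6J (-1.20). Irf9, the DNA-binding partner of STAT2 in that complex, was also at least 2-fold lower. It stood at 8.58 FPKM in humanCD3eTg and 19.7 FPKM in B6J (-1.11). Tyk2, the remaining kinase of the type I receptor, stood at 4.46 FPKM in humanCD3eTg and 5.004 FPKM in B6J.

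Among the sensors of foreign nucleic acid, Zbp1 stood apart. This gene, whose protein recognises Z-form nucleic acid and can trigger cell death, stood at 0.283 FPKM in humanCD3eTg and 6.59 FPKM in B6J (log2 ratio -2.56), an interval of 1.84% to 8.63% of the B6J level. In B6J it ranked at the 37.7th percentile of genes past the filter, and in humanCD3eTg at the 1.17th. Zbp1 passed the filter through its level in B6J alone, so its low rank in humanCD3eTg follows from the filter. The RNA helicase genes Ddx58 and Ifih1 differed less. Ddx58, which encodes RIG-I, stood at 9.13 FPKM in humanCD3eTg and 13.4 FPKM in B6J (-0.51). Ifih1, which encodes MDA5, stood at 2.81 FPKM in humanCD3eTg and 4.46 FPKM in B6J (-0.52). Both were thus at similar shares of the B6J level, 67.9% and 63.0%. Eif2ak2, the RNA-activated kinase PKR that blocks translation, stood at 3.27 FPKM in humanCD3eTg and 4.19 FPKM in B6J (-0.28). Dhx58, which encodes LGP2, was low in both libraries, at 0.114 FPKM in humanCD3eTg and 0.430 FPKM in B6J. It rested on about 4 fragments in humanCD3eTg and 19 in B6J. This was 26.6% of the B6J level, with a wide interval of 6.53% to 79.5%.

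All 6 genes of the ISG15 and ADP-ribosylation group were lower (background 55.4%), 3 of them at least 2-fold (background 4.47%). Parp14, among these 3, passed the filter through its level in B6J alone, so its lower direction was fixed by the filter. Of the 5 genes of the group at 1 FPKM or more in both libraries, 2 were at least 2-fold lower. Isg15, the ubiquitin-like modifier whose promoter holds the 3 overlapping matches, stood at 11.3 FPKM in humanCD3eTg and 30.4 FPKM in B6J (log2 ratio -1.35). Usp18, the protease that removes ISG15 from proteins and dampens the type I receptor, stood at 2.496 FPKM in humanCD3eTg and 4.57 FPKM in B6J (-0.67). Trim25, a ubiquitin ligase that acts on RIG-I, stood at 7.57 FPKM in humanCD3eTg and 13.4 FPKM in B6J (-0.75). Isg15 thus stood lower than the enzyme that removes it, at 37.2% of the B6J level against 54.7%, with intervals that overlap (29.4% to 46.8% and 40.0% to 74.3%).

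Parp14, a mono-ADP-ribosyl transferase, was the lowest of this group, at 0.689 FPKM in humanCD3eTg and 4.004 FPKM in B6J (log2 ratio -1.57). Parp9 and Dtx3l encode partners of 1 complex that joins ADP-ribosylation to ubiquitin transfer. Dtx3l stood at 2.56 FPKM in humanCD3eTg and 7.27 FPKM in B6J (-1.22), and Parp9 at 4.26 FPKM in humanCD3eTg and 7.33 FPKM in B6J (-0.66). The pair had nearly the same level in B6J and differed in humanCD3eTg, where their intervals did not overlap (30.1% to 41.2% of the B6J level for Dtx3l, 49.3% to 68.0% for Parp9). The file headers and labels do not give the strand setting, so reads of neighbouring genes could be shared.

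The level of the OAS family rested mostly on Oasl2. OAS proteins make the oligoadenylate that activates RNase L, while the OAS-like proteins carry the same fold with ubiquitin-like domains. Oasl2 stood at 30.8 FPKM in humanCD3eTg and 62.0 FPKM in B6J (log2 ratio -0.98), and held most of the family's summed 31.8 FPKM in humanCD3eTg and 64.3 FPKM in B6J. Oasl1 stood at 0.526 FPKM in humanCD3eTg and 1.14 FPKM in B6J. Oas1a was listed at 0 in humanCD3eTg and at 0.948 FPKM in B6J, or about 32 fragments. Oas3 went the other way at a low level, with 0.401 FPKM in humanCD3eTg and 0.205 FPKM in B6J (about 29 fragments in humanCD3eTg and 18 in B6J, interval 109% to 386%). Oas2 stood at 0.0172 FPKM in humanCD3eTg and 0.0409 FPKM in B6J, on about 1 fragment in humanCD3eTg and 3 in B6J. Oas1a has near-identical neighbours that may share its reads, so its value is uncertain.

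The IFIT genes, whose proteins bind viral RNA ends, did not move as a group. Ifit1 stood at 0.674 FPKM in humanCD3eTg and 2.17 FPKM in B6J (log2 ratio -0.92). Ifit3 stood at 0.296 FPKM in humanCD3eTg and 1.48 FPKM in B6J (-0.93). Ifit2 stood at 2.11 FPKM in humanCD3eTg and 2.08 FPKM in B6J. Thus Ifit1 and Ifit3 were at 31.0% and 20.1% of the B6J level and Ifit2 at 101%, with an interval of 78.8% to 129% that does not overlap theirs (19.2% to 47.6% and 7.42% to 43.6%). Ifit1 and Ifit3 hold ISRE-like matches in the window shown, and neither RefSeq window of Ifit2 holds one. A tie between motif and level was not tested. Over the set, 3 of 9 genes with a match and 5 of 15 without were at least 2-fold lower. Ifit3 has a near-identical copy, so its value is uncertain.

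Ifitm3 and Ifitm2 were the most abundant genes of the set. The membrane proteins of the IFITM family hinder virus entry, and Ifitm1 and Ifitm3 are also known from germ cell development. Ifitm3 stood at 781 FPKM in humanCD3eTg and 1211 FPKM in B6J (log2 ratio -0.63). This was 62.2% of the FPKM summed over the 38 genes in humanCD3eTg and 61.1% in B6J, at the 98.9th percentile of all genes past the filter in humanCD3eTg and the 99.4th in B6J. Ifitm2 stood at 196 FPKM in humanCD3eTg and 264 FPKM in B6J (-0.43). Ifitm1 was at least 2-fold lower, with 23.0 FPKM in humanCD3eTg and 56.9 FPKM in B6J (-1.27). The family members share sequence, and reads may have been assigned to the wrong copy.

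Mx1 and Mx2, antiviral GTPases that are known to be defective in most laboratory mouse strains, were low. Mx1 was listed at 0 in humanCD3eTg and at 0.341 FPKM in B6J, about 21 fragments. Mx2 stood at 0.455 FPKM in humanCD3eTg and 0.338 FPKM in B6J, about 16 fragments in humanCD3eTg and 15 in B6J. The paralogs share sequence, so a swap of reads between them was not tested.

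Among the remaining effectors Bst2 had the lowest log2 ratio of the set. Bst2 encodes tetherin, which holds budding virus at the cell surface and is also a marker of plasmacytoid dendritic cells. It stood at 3.24 FPKM in humanCD3eTg and 25.7 FPKM in B6J (log2 ratio -2.66), about 30 fragments in humanCD3eTg and 298 in B6J. Of other genes listed for those dendritic cells, Siglech was at or near 0 in both libraries, Ccr9 was listed at 0 in humanCD3eTg and stood at 1.59 FPKM in B6J, Irf8 stood at 22.4 FPKM in humanCD3eTg and 45.9 FPKM in B6J, and Tcf4 at 14.6 FPKM in humanCD3eTg and 14.7 FPKM in B6J. The part of such cells in the Bst2 value was not tested. Xaf1, a pro-apoptotic partner of XIAP, stood at 1.55 FPKM in humanCD3eTg and 6.10 FPKM in B6J (-1.48). Ifi35, which forms a complex with NMI, stood at 15.96 FPKM in humanCD3eTg and 33.1 FPKM in B6J (-1.01).

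The other effectors were within 2-fold on FPKM + 1. Isg20, an RNA exonuclease, stood at 20.7 FPKM in humanCD3eTg and 38.9 FPKM in B6J (log2 ratio -0.88). Samhd1, which depletes deoxynucleotides, stood at 9.29 FPKM in humanCD3eTg and 11.4 FPKM in B6J (-0.27). Rsad2, which encodes viperin, stood at 0.793 FPKM in humanCD3eTg and 0.990 FPKM in B6J. Rtp4, a receptor transporter protein gene known to be induced by interferon, stood at 0.461 FPKM in humanCD3eTg and 1.17 FPKM in B6J. Rsad2 was the effector nearest to Samhd1 in relative level, 80.0% against 81.3%, though on only about 45 fragments in humanCD3eTg and 70 in B6J.

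Other genes of the pathway were counted from lists drawn up for this tissue. Of 88 found, 60 were past the filter, 21 of them at least 2-fold lower in humanCD3eTg (background 4.47%) and none at least 2-fold higher (background 2.1%), with a median log2 ratio of -0.66. Of these, 36 were further interferon-stimulated genes, 18 of them at least 2-fold lower. Of the 36, 6 passed the filter through their level in B6J alone (Cmpk2, Ly6a, Sp100, Sp110, Ifi204 and Psmb8), so the count is not support for the set. The lowest were Psmb8 (log2 ratio -3.44), Lgals3bp (-2.50), Tap1 (-2.43), Ciita (-2.19) and Lgals9 (-2.17). Psmb8, Tap1 and Ciita serve antigen presentation, and Lgals3bp and Lgals9 encode a galectin ligand and a galectin, so these 5 genes are better known from other roles than antiviral defence.

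In the sensing list 1 of 13 genes was at least 2-fold lower, a share near the background of 4.47%. This was Tmem173, which encodes the DNA-sensing adaptor STING, at 4.93 FPKM in humanCD3eTg and 25.8 FPKM in B6J (log2 ratio -2.18). Mavs, the adaptor of RIG-I and MDA5, stood at 3.27 FPKM in humanCD3eTg and 3.22 FPKM in B6J. After Tmem173, the lowest log2 ratios were those of Ticam1 (-0.75), Myd88 (-0.72), Irf7 (-0.70) and Adar (-0.64). Irf7, the inducer of type I interferon genes, stood at 1.94 FPKM in humanCD3eTg and 3.78 FPKM in B6J.

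Among further receptor and transducer genes, the log2 ratio was -0.80 for Ptpn6, -0.55 for Socs1 and 0.40 for Ptpn2, the gene of a phosphatase that acts on JAK and STAT proteins, which was higher in humanCD3eTg. Of 13 interferon genes found, none was past the filter. Ifng stood at 0.189 FPKM in humanCD3eTg and 1.24 FPKM in B6J, about 3 fragments in humanCD3eTg and 25 in B6J. Ifnk was listed at 1.13 FPKM in humanCD3eTg and at 0 in B6J. Ifna1 was listed at 0.345 FPKM in humanCD3eTg, on about 2 fragments, and at 0 in B6J. Ifnb1 was listed at 0 in both.

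**Figure D4:**
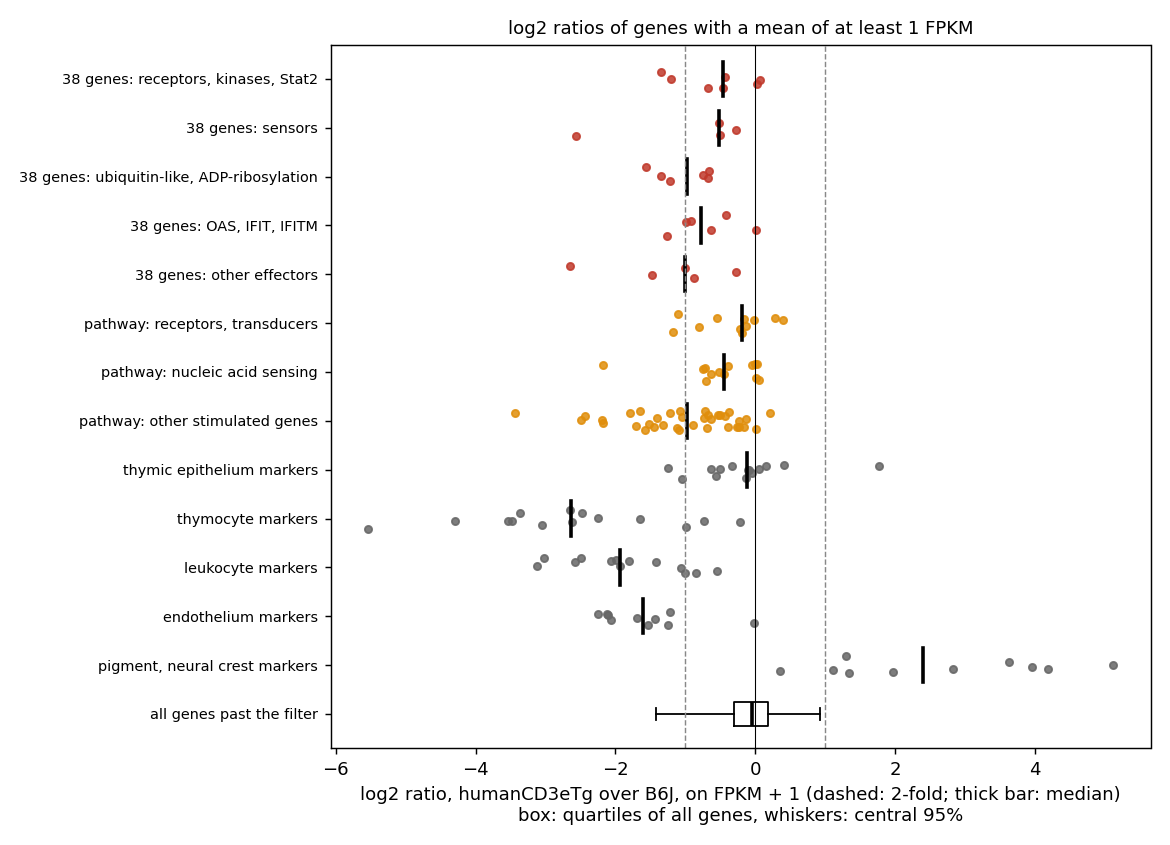
log2 ratio of humanCD3eTg over B6J on FPKM + 1 for each gene past the filter (points), with list medians as thick bars; red points are the genes of the set, orange points other pathway genes and grey points cell type markers, and the box shows all 13493 genes. Most red and orange points lie left of 0, as do thymocyte, leukocyte and endothelial markers, while thymic epithelial markers have a median of -0.12.

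The nearest gene families are given beside the set, with no test of a difference possible. Of 13 IRG and GBP GTPase genes past the filter 12 were at least 2-fold lower in humanCD3eTg (median log2 ratio -1.58), but Ifi47, Gbp4, Gbp5, Gbp6 and Gbp9 passed it through their level in B6J alone. Of 8 interferon regulatory factor genes past it, 2 differed 2-fold downwards and 1 upwards (median -0.33). Over all genes these shares were 4.47% lower and 2.1% higher. Within the 38, the 6 receptor and kinase genes had a median of -0.45, and the 21 sensors, modifiers and effectors past the filter one of -0.88. Stat2 (-1.20) is in neither group. Zbp1, Parp14 and Ifit1, all in the larger group, passed the filter through their level in B6J alone. No contrast between these medians is therefore drawn.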

How the data were processed

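The authors deposited 1 FPKM value per gene symbol and library. Per the submitters' processing notes, TopHat2 2.0.8, Bowtie2 2.1.0, Cufflinks 2.1.1 and build mm9 are named, without their roles. The sources used here do not give annotation, filters or strand setting. CBA/J alleles may align less well to a C57BL/6 genome, which was not tested.

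The members, lists and limits were chosen with earlier results of these data known. All 39 members are named, and from each other pathway list up to 5 genes of the largest ratio plus Irf9, Tyk2, Irf7 and Mavs; 1 gene that the rule names is not reported here. The 2 comparison families and gene copies were added after the values were seen. log2 ratios used a pseudocount of 1 and a mean of at least 1 FPKM. A value of at most 0.001 FPKM counts as listed at 0, which can be a failed estimate, and no fold is given for it. The computation was tested on simulated data (Python 3.11.15, pandas 2.3.3, scipy 1.17.1).

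Depth was estimated from the step, between 0.04 and 0.09 FPKM over 1 kb, that made low values of single-transcript genes whole. GENCODE M21 lengths less 210 bases were used. Within 0.1 of a whole fragment lay 63.0% of 227 genes in humanCD3eTg and 64.8% of 264 in B6J, where a step not chosen to fit gives 20%. The most frequent ratio of low values was 1.26, against 1.25 for the fitted steps. Fragment numbers use the longest coding transcript of each gene and are approximate, and no count test was run.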

Additional observations from a re-analysis of the deposited data

How the results depend on the processing

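No paired analysis was possible because each group holds 1 library, and no library could be left out. Of the 28 genes of the set past the filter, 10 were at least 2-fold lower. This count was 5 with a pseudocount of 5 (1.65% of all genes under that setting), 5 of 18 genes when the mean had to reach 5 FPKM (2.92%), 18 at a limit of 1.5-fold (10.9%) and 2 at 4-fold (1.27%). For the other pathway genes the count of 21 was 12 with a pseudocount of 5, 32 at 1.5-fold and 6 at 4-fold, and with no filter 1 gene, Ifnk, was at least 2-fold higher. The larger pseudocount shrinks ratios of low genes and the stricter filter leaves fewer genes. A further 48 counts and medians stayed within 1.5-fold over these and the other alternatives, some of them counts of 0 that stayed at 0. The others were pseudocount 0.1, no filter, median centring, quantile normalization, rescaling and leaving out genes listed at 0. Leaving those genes out could change nothing, since no gene of these lists past the filter was at 0. Single genes moved more. Of 38 log2 ratios, 8 moved by at least 1.5-fold with a pseudocount of 0.1 and 7 with 5. That of Zbp1 went from -2.56 to -4.13 with 0.1 and to -1.13 with 5. The median of the set ranged from -0.83 with a pseudocount of 0.1 to -0.53 with 5. That of the other pathway genes, -0.66, ranged from -0.74 with a pseudocount of 0.1 to -0.35 with 5, and was -0.38 with no filter. Medians were compared by the difference of their log2 values. The low depth of genes such as Oas2, Dhx58 and Mx2 limits what can be said of them.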

Other observations

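Close copies of genes in the set were low in both libraries. The 7 other genes of the Oas1 cluster summed to 0.607 FPKM in humanCD3eTg, where 5 were at 0, and to 2.15 FPKM in B6J, where 3 were. The 3 further genes of the Ifit cluster, among them I830012O16Rik, the copy of Ifit3, summed to 0.116 FPKM in humanCD3eTg and 1.17 FPKM in B6J. Ifitm5, Ifitm6 and Ifitm7 summed to 1.02 FPKM in humanCD3eTg and 1.33 FPKM in B6J, far under the level of Ifitm1, Ifitm2 and Ifitm3. Ifi27l1, an older symbol that RefSeq pairs with Ifi27, stood at 8.45 FPKM in humanCD3eTg and 26.6 FPKM in B6J, with a log2 ratio of -1.55. It is not counted among the 38 genes. The interferon lambda genes Il28a and Il28b had identical values in each library, at 0.0834 FPKM in humanCD3eTg and 0.132 FPKM in B6J.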
